A study of Arabidopsis thaliana with 6 samples.

Results

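A set of 52 probe sets was low on every wild type array and clearly above that level on every agp6 agp11 array, and these 52 are described here out of 22746 probe sets on the Arabidopsis thaliana ATH1 expression array. A probe set is a group of short oligonucleotides that together measure the transcripts of a gene, or for some probe sets of several genes. The members were chosen by their signals: at most 40 on all 3 wild type arrays and above 60 on all 3 agp6 agp11 arrays, in the linear normalized units of the deposited table. The rule was met by 56 probe sets, and 4 of them, for At2g19970, At1g18870, At2g27520 and At5g48540, were left out. Because the same arrays chose the members, the genotype difference of a member is a description and not a finding.

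The arrays measured RNA of pollen tubes from agp6 agp11 plants, a homozygous double null line made by crossing 2 Ds transposon insertion lines, and from wild type plants of the same ecotype, Nossen. Pollen of both genotypes was pooled from many flowers and germinated in vitro in the dark for 8 h, and each genotype had 3 samples labelled as biological replicates, with 1 array each. The mutant is 1 line from 1 cross. In bulk RNA of this kind, a change in the share of cells that hold a transcript and a change in the amount per cell cannot be told apart. Precision is limited throughout by there being only 3 arrays of each genotype.

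Pollen tubes grow at the tip by delivering membrane and wall polymers in vesicles, and arabinogalactan proteins, heavily glycosylated proteins of the plasma membrane and wall, are abundant in them. AGP6 and AGP11 are pollen arabinogalactan proteins. Several members belong to systems that modify or degrade proteins. In one of these the small protein RUB is attached to cullins, the scaffolds of a large class of ubiquitin ligases, and is removed again by the COP9 signalosome, and F-box proteins bring substrates to such ligases. In another, ATG8 proteins are joined to membrane lipid during autophagy.

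Both targeted genes followed the labels. AGP6 gave signals of 31.1, 29.1 and 15.1 in agp6 agp11 and of 13313, 13677 and 9597 in wild type. AGP11 gave 34.7, 40.4 and 32.5 in agp6 agp11 and 10016, 9448 and 5604 in wild type. The array medians lay between 23.3 and 24.6, and 6280 to 6795 probe sets exceeded 40 on an array. Correlations of log2 signals were 0.944 to 0.979 within a genotype and 0.910 to 0.951 between genotypes. Of the pollen tube markers 4 of 9 could be named, with summed signals of 8035 to 8624 in agp6 agp11 and 5301 to 7576 in wild type. The 3 named tapetum markers of 12 stayed at or under 24.0 on every array. The 2 named photosynthesis markers of 16 summed to 83.6 to 110 in agp6 agp11 and 44.5 to 65.8 in wild type, none of them above 61.7, and 1 passed the genotype test. The 4 named sperm cell markers of 7 summed to 15687 to 21602 in agp6 agp11 and 8740 to 11448 in wild type. Of these sperm cell markers 1 passed, and of the pollen tube markers none did. The summed signals of the pollen tube, photosynthesis and sperm cell markers were each higher in agp6 agp11, without overlap between genotypes. Over all probe sets 2.01% were called higher and 1.67% lower, and the share without overlap was not counted. The part of these differences in the members' signals was not tested.

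Members were rare even among probe sets low in wild type. On all 3 wild type arrays 15260 probe sets were at or below 40, and 14887 of these exceeded 60 on none of the agp6 agp11 arrays, 268 on 1, 49 on 2 and 56 on all 3, so that 0.367% met the rule. The opposite pattern, above 60 on every wild type array and at or below 40 on every agp6 agp11 array, was met by 67 of the 14736 probe sets that were low in agp6 agp11. Mean signals of the members in agp6 agp11 had a median of 95.0 and ran between 68.8 and 780, while their means in wild type had a median of 27.1 and ran between 6.02 and 39.2. Among the members, 4 exceeded a mean of 200 in agp6 agp11, 19 lay between 100 and 200 and 29 lay below 100. The median member exceeded 84.5% of all probe sets in agp6 agp11, but lay far below the brightest, of which 621 exceeded 1000 there.

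**Figure D1:**
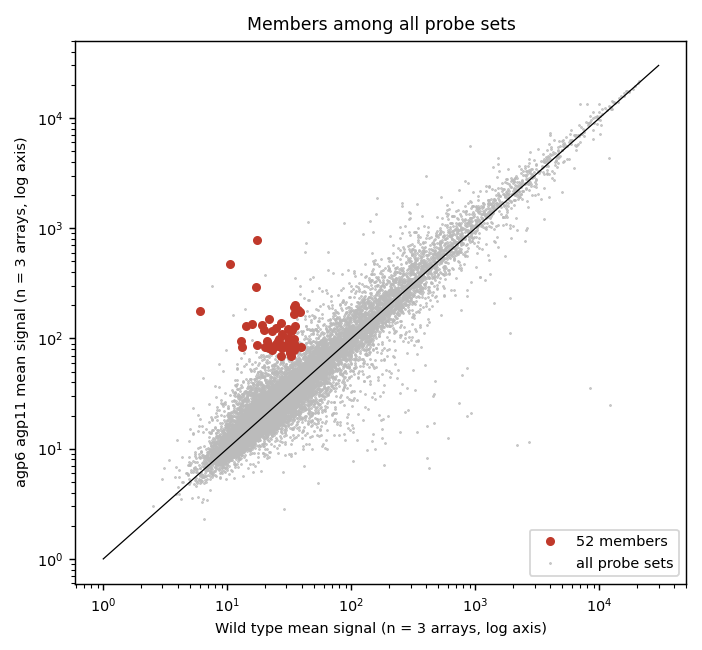
Mean signal in agp6 agp11 (vertical, log axis) against mean signal in wild type (horizontal, log axis), n = 3 arrays each, for the 52 members (red) and all probe sets (grey); the line marks equal signal. The members lie above the line at wild type means of 6.02 to 39.2 and agp6 agp11 means of 68.8 to 780, far below the brightest probe sets.

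A fold change against a signal at or below 40 rests on values near the array median, so each member was given a bound, the geometric mean of its 3 agp6 agp11 signals over the limit of 40. The bound had a median of at least 2.36-fold and ran between 1.71-fold and 13.8-fold, and 9 members reached at least 4-fold. The measured log2 difference had a median of 1.91 (range 1.05 to 5.49), beside a median of 0.03 over all probe sets. All 52 members were called higher in agp6 agp11 by limma at an adjusted p under 0.05, the largest being 0.0371, where 457 of 22746 probe sets (2.01%) were called higher and 380 (1.67%) lower. With the replicate number as a block, which treats same-numbered arrays of the genotypes as pairs, 1145 probe sets (5.03%) were called higher and 752 (3.31%) lower. The rule used this contrast, and nothing follows from that count.

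The agp6 agp11 arrays ranked neither the members nor other probe sets evenly. Replicate 1 gave the highest of the 3 agp6 agp11 signals for 32 members (61.5%), replicate 2 for 12 (23.1%) and replicate 3 for 8 (15.4%). The same shares over the 4132 probe sets above 60 on every agp6 agp11 array were 44.1%, 34.8% and 21.1%. The lowest signal came from replicate 1 in 5 members (9.62%), from replicate 2 in 24 (46.2%) and from replicate 3 in 23 (44.2%), close to the 12.996%, 38.1% and 48.9% over those probe sets. The coefficient of variation over the agp6 agp11 arrays had a median of 20.4% in members and 20.6% over those 4132 probe sets, and 6 members (At1g32590, BGLU15, ASHH3, ECR1, At2g26630 and FPF1) differed by 2-fold or more between their highest and lowest agp6 agp11 array.

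**Figure D2:**
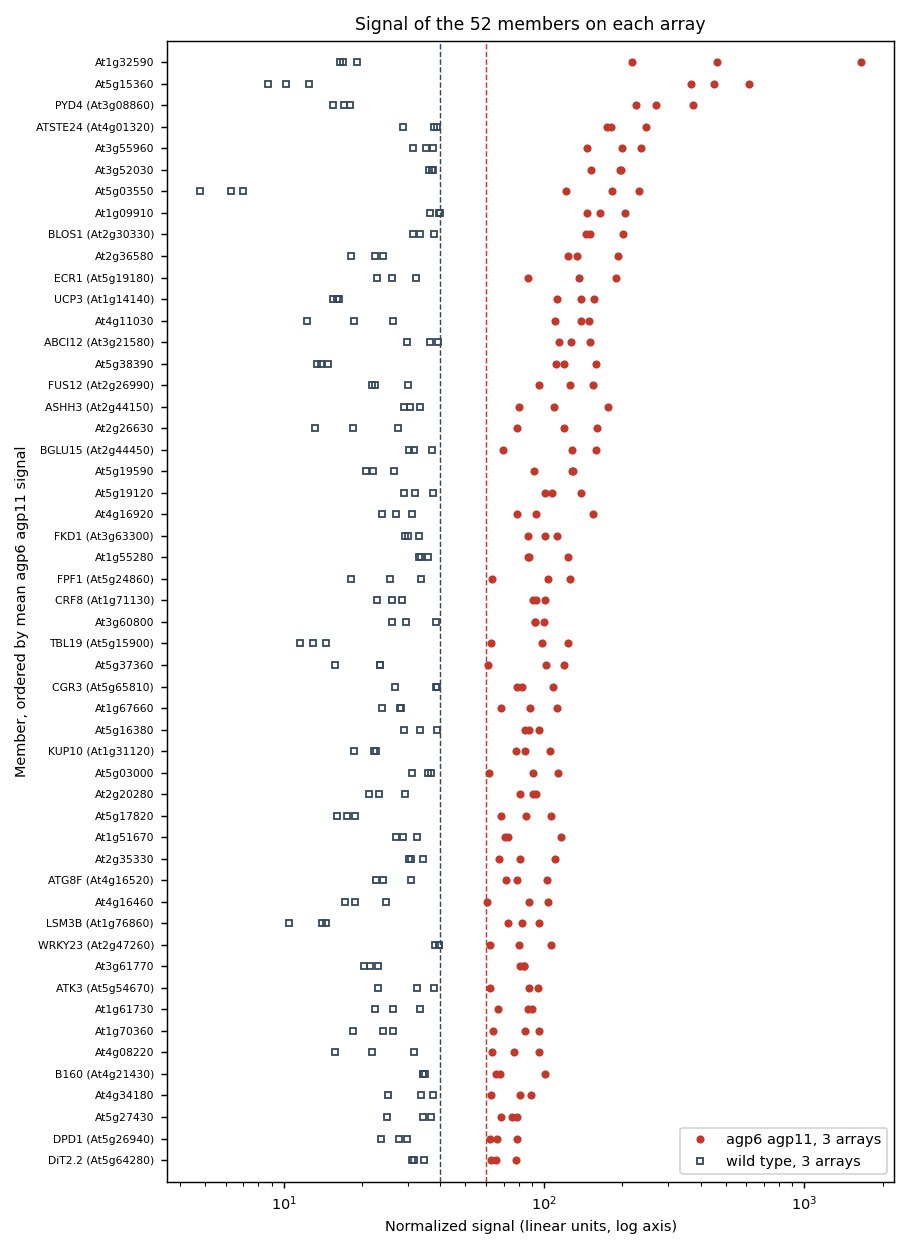
Signal of each member (rows, ordered by mean agp6 agp11 signal, highest at the top) on the 3 agp6 agp11 arrays (filled circles) and the 3 wild type arrays (open squares), log axis, with dashed lines at 60 and 40. No member's genotypes overlap, as the rule requires, and 29 of the 52 members have agp6 agp11 means between 60 and 100.

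The limits cut through a continuous range of signals. Just inside the agp6 agp11 limit stood At4g16460, with a lowest agp6 agp11 signal of 60.5, At5g37360 with 61.0 and At5g03000 with 61.5. Just outside it stood At1g78070 with 58.9, At1g53770 with 58.5 and At1g63540 with 58.3. Just inside the wild type limit stood At1g09910, with a highest wild type signal of 39.7, WRKY23 with 39.7 and ABCI12 with 39.1, and just outside it At1g43590 with 40.1, At3g57785 with 40.2 and At1g17930 with 40.2. The wild type mean exceeded 30 in 22 members and was below 20 in 11.

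Of the 52 members, 28 carry an annotation that could be used, 5 of them from the study's gene descriptions and the others by symbol or synonym in RefSeq. Another 3 are pseudogenes in RefSeq, and 21 are given by identifier alone. Among these 21, At4g11030 is a locus of the list of long-chain acyl-CoA synthetases and is not counted in the groups that follow. The annotated members spread over many functions. There were 8 in protein modification or turnover, 6 in metabolism or transport and 4 in gene regulation or RNA. A further 3 were in organelles, vesicles or the cytoskeleton and 2 in the cell wall, beside 1 disease resistance-type gene. Shares of these functions over all probe sets were not counted.

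Several of the members with the highest signals in agp6 agp11 carried no annotation that could be used. At1g32590, a pseudogene in RefSeq, gave 464, 217 and 1658 in agp6 agp11 and 16.9, 16.4 and 19.1 in wild type. Its agp6 agp11 arrays differed more than those of any other member, with a coefficient of variation of 98.8%, although the lowest was still far above the wild type arrays, and the bound was at least 13.8-fold. At5g15360 gave 611, 452 and 368 in agp6 agp11 and 8.73, 10.3 and 12.6 in wild type, with a bound of at least 11.7-fold. At5g03550 had the lowest wild type signals of all members, with 233, 183 and 121 in agp6 agp11 and 6.98, 4.77 and 6.31 in wild type. At3g55960 (236, 146 and 199 in agp6 agp11, against 37.4, 35.1 and 31.5 in wild type) and At1g09910 (205, 164 and 147, against 36.4, 39.6 and 39.7) sat close below the limit in wild type and reached bounds of at least 4.76-fold and 4.26-fold.

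Among the pseudogenes, At2g26630 gave 120, 160 and 78.7 in agp6 agp11 and 18.5, 27.6 and 13.2 in wild type, and At4g08220 gave 95.7, 63.0 and 76.9 in agp6 agp11 and 21.9, 31.7 and 15.8 in wild type. Another member needs care for a different reason: the probe set of At2g36580 (192, 124 and 134 in agp6 agp11, against 22.5, 18.2 and 24.0 in wild type) is of a type that can match several genes, and the platform table pairs it with At3g52990 as well. No member had another named probe set for its gene.

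Protein modification was the largest group of annotated members, with 8 members and bounds between 2.00-fold and 4.98-fold. Its size depends on how annotation was obtained, since its F-box members have no symbol and were placed by the study's list alone. The share of such genes over all probe sets was not counted. STE24, the protease that trims prenylated proteins with a CAAX end, gave 181, 248 and 175 in agp6 agp11 and 28.8, 37.7 and 38.7 in wild type. None of the other 6 listed prenylation genes could be named, so its pathway partners were not analysed here. ECR1, a subunit of the enzyme that activates RUB, gave 136, 190 and 86.8 in agp6 agp11 and 26.1, 32.3 and 22.8 in wild type. CSN2, also called FUS12, a subunit of the COP9 signalosome, gave 154, 96.2 and 126 in agp6 agp11 and 22.6, 30.2 and 21.8 in wild type. Thus a gene of RUB activation and a gene of RUB removal were both among the members, with bounds of at least 3.27-fold and 3.08-fold.

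Other genes of the same list were called in both directions. Of 23 listed RUB conjugation, COP9 signalosome and cullin genes, 9 could be named, and 3 rose (ECR1 and CSN2, fixed by the rule, and CSN8), 2 fell and 4 did not pass. CSN8, another signalosome subunit, was already bright in wild type, with 561, 352 and 438 in agp6 agp11 and 178, 144 and 182 in wild type (log2 difference 1.40 ± 0.26 SE, limma adjusted p = 0.0177). RCE1, the enzyme that conjugates RUB, gave 21.6, 23.4 and 22.4 in agp6 agp11 and 61.1, 52.4 and 46.7 in wild type (-1.24 ± 0.18, limma adjusted p = 0.00379). CSN5A, the catalytic signalosome subunit that cleaves RUB from cullins, gave 18.97, 23.1 and 17.6 in agp6 agp11 and 47.2, 54.8 and 36.7 in wild type (-1.21 ± 0.20, limma adjusted p = 0.00964). The groups did not overlap in any of the 3 genes, which were picked because they passed, so this adds nothing to the calls.

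The members aside, the 7 other genes thus gave 1 higher, 2 lower and 4 not passed, with a median log2 difference of 0.10 beside 0.03 over all probe sets. Over all probe sets 2.01% were called higher and 1.67% lower. CUL3A averaged 318 ± 75.7 in agp6 agp11 and 195 ± 58.5 in wild type (SD, n = 3), and CUL4 averaged 328 ± 61.3 in agp6 agp11 and 180 ± 11.6 in wild type, and neither passed (limma adjusted p = 0.342 and 0.115). At2g18600, a listed locus with no symbol in RefSeq, averaged 45.9 ± 3.94 in agp6 agp11 and 85.2 ± 22.9 in wild type and did not pass either (limma adjusted p = 0.0871). With the replicate number as a block the list gave 8 calls in place of 5, since CUL3A and CUL4 (higher) and At2g18600 (lower) then passed at limma adjusted p = 0.0225, 0.0115 and 0.0254. CSN5A lost its call without replicate 1 of either genotype (limma adjusted p = 0.0590 to 0.0653), and CSN8 when agp6 agp11 replicate 1 or either of wild type replicates 1 and 2 was left out (0.0777 to 0.0951). CSN8, RCE1 and CSN5A were named through the study's list of genes chosen for their change on these arrays, so their calls are not independent evidence, and of the 3 other genes that the platform table itself names (CUL4, At2g18600 and CSN5B) none passed without the block.

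**Figure D3:**
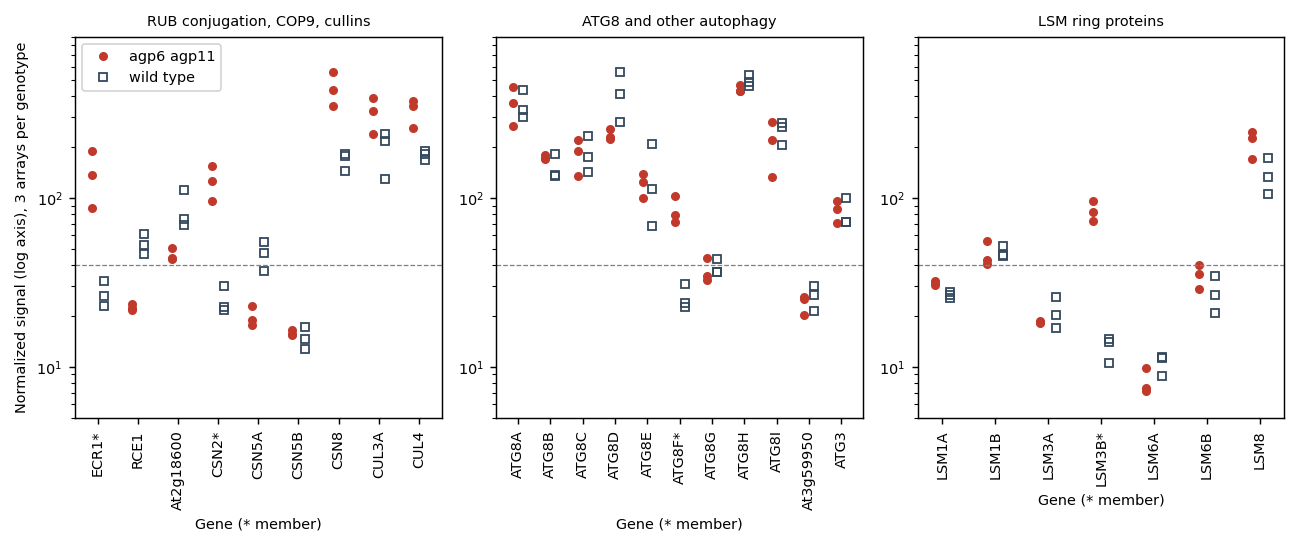
Signals on the 3 agp6 agp11 arrays (filled circles, left of each pair) and 3 wild type arrays (open squares, right) for the named genes of 3 pathway lists, log axis, with members starred and the wild type limit of 40 dashed. ECR1, CSN2, ATG8F and LSM3B separate by genotype by construction, RCE1 and CSN5A are lower in agp6 agp11, and most other ATG8 and LSM genes lie at like levels in both genotypes.

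F-box genes made up another part of this group. The study lists At3g52030 (152, 197 and 197 in agp6 agp11, against 37.3, 37.6 and 36.4 in wild type), At5g38390 (119, 159 and 112, against 14.0, 14.9 and 13.5), At1g70360 (95.6, 63.8 and 84.5, against 26.4, 18.5 and 24.0) and At5g03000, a kelch repeat gene (91.0, 114 and 61.5, against 31.2, 36.8 and 35.9), with its F-box genes. At3g52030 had the highest bound of these, at least 4.51-fold, and At5g38390 followed with at least 3.21-fold. That list was chosen on these arrays, and is not independent of the rule.

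ATG8F, which is conjugated to membrane lipid when autophagosomes form, gave 103, 71.7 and 79.2 in agp6 agp11 and 22.7, 24.0 and 30.8 in wild type. It was the only member in an autophagy list of 21 genes, of which 11 could be named. None of the 10 others passed the test. Among them were the 8 other ATG8 genes, whose log2 differences ran between -0.76 and 0.21 with a smallest limma adjusted p of 0.260. Their means ran between 37.2 and 442 in agp6 agp11 and between 38.7 and 494 in wild type, so that a signal for the family was present in both genotypes. ATG8H averaged 442 ± 19.8 in agp6 agp11 and 494 ± 38.1 in wild type (SD, n = 3). ATG8D averaged 237 ± 17.1 in agp6 agp11 and 417 ± 136 in wild type, did not pass (limma adjusted p = 0.260) and passed as lower only with the replicate block (0.0385).

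PYD4 led the members of metabolism and transport. This gene, assigned to the pyrimidine degradation pathway by its symbol, gave 375, 226 and 269 in agp6 agp11 and 17.1, 15.6 and 18.1 in wild type, a bound of at least 7.09-fold. UCP3, a mitochondrial carrier of the uncoupling protein family, gave 156, 112 and 139 in agp6 agp11 and 15.5, 16.3 and 16.0 in wild type. The wild type arrays of both genes lay within a few units of each other. None of the other 3 listed pyrimidine catabolism genes and none of the other 5 listed mitochondrial uncoupling genes could be named.

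ABCI12, of an ABC transporter subfamily, gave 150, 114 and 127 in agp6 agp11 and 29.8, 36.6 and 39.1 in wild type. KUP10, a potassium uptake transporter, gave 105, 84.3 and 78.0 in agp6 agp11 and 22.3, 18.6 and 22.6 in wild type. DiT2.2, a plastid dicarboxylate transporter, gave the lowest mean of all members in agp6 agp11, with signals of 78.0, 65.8 and 62.7 there and of 34.5, 31.1 and 31.6 in wild type. The bounds of these transporters were at most 3.23-fold. Of 13 listed KUP genes 3 could be named, and the 2 other than KUP10 did not pass: KUP2 averaged 183 ± 49.7 in agp6 agp11 and 107 ± 36.2 in wild type (SD, n = 3, limma adjusted p = 0.298, and 0.0147 with the replicate block), and At1g60160, a listed locus with no symbol, averaged 24.6 ± 2.43 in agp6 agp11 and 25.1 ± 6.59 in wild type (limma adjusted p = 0.997). DiT2.2 was the only named gene of the 3 listed plastid dicarboxylate transporters.

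The 3 other named ABCI genes all passed, in both directions, where 2.01% of all probe sets were called higher and 1.67% lower. ABCI20 gave 283, 203 and 239 in agp6 agp11 and 841, 842 and 861 in wild type (log2 difference -1.83 ± 0.24 SE, limma adjusted p = 0.00292), and ABCI19 averaged 27.1 ± 4.35 in agp6 agp11 and 65.3 ± 23.4 in wild type (SD, n = 3, limma adjusted p = 0.0320). ABCI10 averaged 49.8 ± 14.1 in agp6 agp11 and 24.7 ± 0.77 in wild type and was higher (limma adjusted p = 0.0469). All 3 were named only through the study's list of changed genes, and 2 of the calls were unstable: ABCI19 lost its call with an offset of 32 or without replicate 1 of either genotype, wild type replicate 3 or agp6 agp11 replicate 2 (limma adjusted p = 0.0514 to 0.148), and ABCI10 under 9 alternatives, among them every array left out but agp6 agp11 replicate 2 (0.0516 to 0.207).

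BGLU15, a beta-glucosidase, gave 128, 158 and 69.7 in agp6 agp11 and 31.8, 30.4 and 37.3 in wild type. Of the 24 other named BGLU genes 3 rose and 21 did not pass, where 2.01% of all probe sets were called higher. They included probe sets with strong signals: BGLU36 gave 3161, 3244 and 2506 in agp6 agp11 and 586, 377 and 232 in wild type (log2 difference 2.99 ± 0.35 SE, limma adjusted p = 0.00134). BGLU14 gave 1183, 971 and 1332 in agp6 agp11 and 153, 173 and 94.6 in wild type (3.08 ± 0.30, limma adjusted p = 4.83e-04). BGLU16 gave 33.2, 31.0 and 34.5 in agp6 agp11 and 18.4, 15.7 and 16.7 in wild type, below the limit of 40 throughout (0.96 ± 0.15, limma adjusted p = 0.00760). Of the 21 that the platform table names, 2 rose, and BGLU14 is named only by the study's list. With the replicate block 4 of the 24 were higher and 1 lower, beside 5.03% and 3.31% of all probe sets. BGLU12 (higher, a probe set that can match several genes) and BGLU25 (lower) then passed as well.

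Of 9 loci in a list of long-chain acyl-CoA synthetases 2 could be named, LACS4 and the member At4g11030, a listed locus with no symbol in RefSeq. LACS4, which activates fatty acids for lipid synthesis and breakdown, gave 190, 116 and 124 in agp6 agp11 and 54.4, 49.9 and 60.6 in wild type (log2 difference 1.35 ± 0.25 SE, limma adjusted p = 0.0153). LACS4 was named only by the study's list of changed genes, and leaving out agp6 agp11 replicate 1 or either of wild type replicates 1 and 2 removed its call (limma adjusted p = 0.0576 to 0.0990).

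The cell wall members were TBL19, of a family that includes enzymes acetylating wall polysaccharides, and CGR3, which takes part in pectin methylation. TBL19 gave 98.4, 124 and 62.8 in agp6 agp11 and 11.5, 12.9 and 14.5 in wild type. CGR3 gave 79.1, 82.7 and 108 in agp6 agp11 and 38.4, 38.9 and 26.8 in wild type, and so stood close to the limit on 2 wild type arrays. Of the 21 other named TBL genes 1 rose and 20 did not pass, where 2.01% of all probe sets were called higher. In wild type 18 of the 21 were at or below 40 on all 3 arrays. TBL20 also passed as higher with the replicate block (limma adjusted p = 0.00613), where 5.03% of all probe sets were called higher. The gene that rose, TBL21, lies directly before TBL19 in gene order.

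TBL21 gave 36.0, 49.2 and 26.8 in agp6 agp11 and 11.3, 5.96 and 6.78 in wild type (log2 difference 2.23 ± 0.28 SE, limma adjusted p = 0.00234), and missed the rule because no agp6 agp11 array passed 60. On the other side of TBL19, At5g15910 went the opposite way, with 19.98, 14.7 and 30.5 in agp6 agp11 and 254, 203 and 353 in wild type (log2 difference -3.66 ± 0.31 SE, limma adjusted p = 2.35e-04). Thus both genes beside TBL19 passed the test, with TBL21 higher and At5g15910 lower in agp6 agp11, while TBL19 itself was higher by the rule. Over all probe sets 2.01% were called higher and 1.67% lower, and the adjacent genes were chosen for description after they were seen. None of the 7 other named genes within 8 genes of TBL19 passed, although SMC5 and At5g15940 passed as higher with the replicate block (limma adjusted p = 0.0373 and 0.00263).

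**Figure D4:**
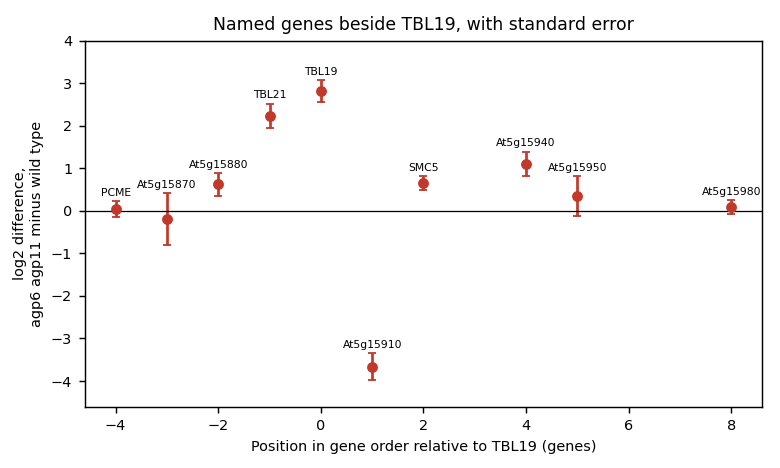
Log2 difference, agp6 agp11 minus wild type (vertical, points with standard errors from the fit on 3 arrays each), against position in gene order relative to TBL19 (horizontal), for the genes that could be named. TBL21 lies at 2.23, TBL19, higher by the rule, at 2.82 and At5g15910 at -3.66, while the other genes lie between -0.19 and 1.10.

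Over all members, 56 directly adjacent genes of 42 members could be named, and none of them was itself a member. Of these neighbours 4 rose (7.14%, against 2.01% of all probe sets), 2 fell and 50 did not pass. With the replicate block 8 were higher (14.3%, against 5.03% of all probe sets) and 4 lower. Beside TBL21, PG2 next to At1g70360 gave 274, 209 and 159 in agp6 agp11 and 77.8, 92.6 and 80.8 in wild type (limma adjusted p = 0.0210). At2g36570 and At3g60810 also rose, at agp6 agp11 means of 47.2 and 29.7 and wild type means of 21.1 and 13.5 (limma adjusted p = 0.0275 and 0.00570). CNI1, next to At5g27430, fell, with 32.7, 38.9 and 27.4 in agp6 agp11 and 87.1, 93.6 and 118 in wild type (limma adjusted p = 0.00325). PG2, At2g36570 and CNI1 were named only by the study's list of changed genes, so the share over all named neighbours is not like that over all probe sets. Among the 51 neighbours that the platform table names, 2 rose (3.92%), 1 fell and 48 did not pass, and with the block 4 were higher (7.84%) and 3 lower. PG2 lost its call when any array but agp6 agp11 replicate 3 was left out (limma adjusted p = 0.0514 to 0.139), and At2g36570 when agp6 agp11 replicate 1 or 2, or one of the wild type replicates 1 and 3, was (0.0794 to 0.151).

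The members of gene regulation and RNA had bounds between 2.02-fold and 2.90-fold. LSM3B, a subunit of the ring of LSM proteins that acts in mRNA decay and splicing, gave 96.0, 82.3 and 72.8 in agp6 agp11 and 14.6, 14.1 and 10.5 in wild type. Its paralogue LSM3A stayed low in both, with 18.3, 18.5 and 18.7 in agp6 agp11 and 20.4, 16.9 and 25.9 in wild type (limma adjusted p = 0.773). Of 11 listed LSM genes 7 could be named, and none of the 6 other than LSM3B passed. LSM8, whose wild type signal was the highest of the list, averaged 213 ± 39.3 in agp6 agp11 and 137 ± 33.2 in wild type (SD, n = 3, limma adjusted p = 0.315, and 0.0456 with the replicate block).

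ASHH3, of the SET domain histone methyltransferases, gave 177, 109 and 80.5 in agp6 agp11 and 33.5, 29.0 and 30.5 in wild type. Of the 7 other named genes of its family 2 rose, where 2.01% of all probe sets were called higher. The platform table names none of the 7. SDG14 averaged 365 ± 87.2 in agp6 agp11 and 163 ± 25.2 in wild type (SD, n = 3, limma adjusted p = 0.0476), and SUVH4 averaged 150 ± 30.1 in agp6 agp11 and 73.4 ± 4.22 in wild type (limma adjusted p = 0.0446). Both were named only by the study's list, both were close to the threshold, and both lost the call with single arrays left out, SDG14 with any of the 6 (limma adjusted p = 0.0550 to 0.191) and SUVH4 with any but agp6 agp11 replicate 2 (0.1003 to 0.180). Both also lost it after median centring (0.0590 for SDG14 and 0.0546 for SUVH4), SDG14 with an offset of 32 (0.0682) and SUVH4 after quantile normalization (0.0780). With the replicate block 4 of the 7 were higher and 1, ASHH1, was lower, since SUVH9 and SDG16 then passed as well. Over all probe sets the block gave 5.03% higher and 3.31% lower.

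CRF8, a cytokinin response factor, was among the most even members, with 101, 91.1 and 93.0 in agp6 agp11 and 28.5, 26.0 and 22.9 in wild type. The other named gene of that stem, CRF7, averaged 195 ± 106 in agp6 agp11 and 64.7 ± 29.7 in wild type and did not pass (limma adjusted p = 0.1005), but passed with the replicate block (3.75e-04). WRKY23, a transcription factor, gave 107, 80.2 and 62.1 in agp6 agp11 and 39.7, 39.6 and 38.2 in wild type. It stood just under the limit on all 3 wild type arrays, and none of the 9 other named WRKY genes passed, while WRKY10 passed as higher with the replicate block (limma adjusted p = 0.0259).

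BLOS1, a subunit of a complex that sorts cargo at endosomes, gave 202, 151 and 145 in agp6 agp11 and 33.5, 37.8 and 31.5 in wild type, a bound of at least 4.10-fold. ATK3, a kinesin that moves along microtubules, gave 95.0, 61.9 and 87.4 in agp6 agp11 and 32.5, 23.1 and 37.8 in wild type. DPD1, the nuclease that degrades organelle DNA in developing pollen, gave 66.2, 62.1 and 79.2 in agp6 agp11 and 23.8, 29.7 and 27.8 in wild type. Of these 3 genes DPD1 stayed close to the limit of 60 on 2 of its agp6 agp11 arrays.

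At4g16920, a gene of the TIR-NBS-LRR type of disease resistance proteins, gave 154, 93.4 and 79.1 in agp6 agp11 and 27.2, 23.9 and 31.1 in wild type. FKD1, named for its vein pattern mutant, averaged 100 ± 13.1 in agp6 agp11 and 30.8 ± 2.02 in wild type (SD, n = 3). FPF1, a flowering promoting factor, gave 104, 63.1 and 126 in agp6 agp11 and 25.7, 18.2 and 33.7 in wild type, and its arrays kept the same order by replicate number in both genotypes. B160 and At1g51670 (HTT5 as a synonym) averaged 78.0 ± 19.98 and 86.7 ± 25.3 in agp6 agp11, against 34.6 ± 0.33 and 29.5 ± 2.75 in wild type.

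The remaining members without an annotation were of the same order. The steadiest was At3g61770, with 84.0, 80.7 and 83.6 in agp6 agp11 and 23.0, 21.5 and 20.4 in wild type, a coefficient of variation of 2.19% in agp6 agp11. At4g11030, without a symbol but a locus of the long-chain acyl-CoA synthetase list, gave 139, 110 and 150 in agp6 agp11 and 12.4, 18.7 and 26.4 in wild type. At5g17820 gave 107, 68.6 and 85.5 in agp6 agp11 and 16.0, 17.5 and 18.8 in wild type. At5g19590 (116 ± 21.4 in agp6 agp11 and 23.1 ± 3.11 in wild type) and At5g19120 (116 ± 19.97 in agp6 agp11 and 32.9 ± 4.36 in wild type) were the other 2 identifiers with a mean above 100 in agp6 agp11 not yet given (SD, n = 3). The other members given by identifier alone are At1g55280, At3g60800, At5g37360, At1g67660, At5g16380, At2g20280, At2g35330, At4g16460, At1g61730, At4g34180 and At5g27430, with agp6 agp11 means between 74.1 and 99.4 and wild type means between 20.3 and 34.2.

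By chromosome, 11 members lay on chromosome 1, 9 on chromosome 2, 7 on chromosome 3, 8 on chromosome 4 and 17 on chromosome 5. Chromosome 5 thus held 32.7% of members and 22.5% of the named loci. Within 1000 genes of AGP6 on that chromosome lay 7 members (13.5%, against 6.73% of named loci): At5g15360, TBL19, At5g16380, At5g17820, At5g19120, ECR1 and At5g19590. Within 250 genes lay the first 3 of these (5.77%, against 1.76%). Within 1000 genes of AGP11 on chromosome 3 lay PYD4 alone (1.92%, against 3.86%). Only loci low in wild type can be members. Of the 955 named loci within 1000 genes of AGP6, 584 were at or below 40 on all 3 wild type arrays. Shares of the low loci alone were not compared, and 18 members were named by the study's table of changed genes alone. No members were direct neighbours. The closest were At4g16460 and ATG8F, 7 genes apart, and At5g19120 and ECR1, 10 genes apart.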

How the data were processed

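Deposited values were linear signal intensity per probe set of 6 Affymetrix ATH1 arrays, which the authors made in dChip by invariant set normalization and a perfect-match-only model. Per the labels, Affymetrix Expression Console was also used. Signals, with a floor of 1, were put on the log2 scale and fitted over all 22746 probe sets with limma 3.58.1 in R 4.3.3 (lmFit, eBayes with an intensity trend, genotype as the term, two-sided, Benjamini-Hochberg adjustment over all probe sets, threshold 0.05). The fit was also run on simulated data with independent noise. Those data do not hold the shared deviations of same-numbered arrays given below, and nothing is concluded from them. No detection calls were used, so 40 is a limit of the rule and not a measured background.

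Genes were named by the platform table (13484 probe sets with 1 gene) and the study's table of changed genes (1995 probe sets), which together named 14326 probe sets of 14186 loci. Of the members 34 were named by both and 18 by the study's table alone. That table, called the study's list of changed genes here, is wider than the set that the paper counts as differentially expressed. It also names genes that did not pass here, such as CUL3A (limma adjusted p = 0.342). Symbols, pseudogenes and gene order came from RefSeq (assembly TAIR10.1), and no coordinates are printed because the build behind the arrays was not given in the sources used here. Where a gene had several probe sets, the brightest by mean log2 signal over the 6 arrays stood for it.

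The members, the 9 pathway lists and the tests were chosen with earlier results of these data known. Named genes were the members, AGP6 and AGP11, probe sets beside the limits, and list, family and neighbour genes past the threshold or with the highest wild type signal of their list. Other values named (At2g18600, CUL3A, CUL4, CSN5B, ATG8D, LSM3A, At1g60160, CRF7, SMC5, At5g15940 and the genes that passed only with the replicate block) were chosen after they were seen, as were the families by shared symbol stem, the adjacent genes and the distance from AGP6. Comparison with the closest protein relatives was planned and was not run. Same-numbered arrays of the genotypes deviated together (correlations of 0.239, 0.347 and 0.379, against -0.343 to 0.071 for differently numbered arrays). The labels do not state that the numbers pair the arrays. The main fit had no block for the number, and the fit with the number as a block was an alternative, given beside the results that it changed. The other alternatives were other limits, quantile normalization, median centring, an offset of 32, a filter on mean signal, no intensity trend and leaving out each array.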

Additional observations from a re-analysis of the deposited data

How the results depend on the processing

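The number of probe sets taken by the rule followed its limits. In place of 52 there were 22 with a wild type limit of 30 and 100 with a wild type limit of 50. There were 80 with an agp6 agp11 limit of 50 and 26 with an agp6 agp11 limit of 80. It was 44 after quantile normalization, 48 after median centring (47 of them members), 51 without probe sets that can match several genes and 45 without the members within 1000 genes of AGP6, a choice made after seeing the data. With each array left out in turn it was 54 to 76. Leaving an array out, or moving a limit to 50, only loosens the rule. All 52 members had to stay in those cases, so nothing follows from their staying. Members called higher by limma numbered 42 to 52 with an array left out (42 without wild type replicate 1), 51 after median centring and 52 under the other alternatives, the replicate block included. RUB conjugation and COP9 signalosome genes called numbered 5, 3 to 5 with an array left out (3 without replicate 1 of either genotype), 4 with a mean signal of at least 40 and 8 with the replicate block. An offset of 32 made the log2 differences of all 52 members smaller by more than the spread between replicates, with every direction kept. Of the 18 other called genes named in the report, 9 lost the call under some alternative, and no gene changed direction. The planned comparison with the closest protein relatives was not run, because no protein sequences were used. Signals at or below 40 lie near the array medians, which limits every fold change of a member to a bound.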
